A study of Arabidopsis thaliana with 10 samples.

Results

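The 4 genes described here encode the EDF (ETHYLENE RESPONSE DNA BINDING FACTOR) group of the RAV transcription factor family of Arabidopsis thaliana. They are TEM1 (AT1G25560, also EDF1), RAV2 (AT1G68840, also EDF2 and TEM2), EDF3 (AT3G25730) and RAV1 (AT1G13260, also EDF4). The rule that chose them names gene identifiers and no measured value, and they are 4 of 33559 genes in the deposited table. The choice was made with earlier results of these data known. RNA came from etiolated seedlings harvested without their roots. The hls1 seedlings carry a mutation in HOOKLESS1, a gene required to form the apical hook that bends the shoot tip of seedlings in darkness. The pifq seedlings are mutant in 4 PHYTOCHROME INTERACTING FACTOR genes (PIF1, PIF3, PIF4, PIF5), whose bHLH products maintain dark growth. In ein3 eil1 the transcription factors EIN3 and EIL1, at the end of the ethylene signalling chain, are mutant, and pifq ein3 eil1 has all 6 mutations. The wild type is Col-0, the background of all the mutants, and the alleles are not named in the labels. Seeds were kept at 4 °C for 3 days, exposed to light for 3 to 6 hours and held in darkness at 22 °C for 3 days, with no treatment. There were 2 replicates of each genotype, 10 samples in all. The deposited table gives 1 RPKM value per gene and genotype (reads scaled by the authors to gene length and sequencing yield), taken as the authors' mean of both replicates. The spread between replicates is not visible, so no difference was tested, none of the values below carries an error, and neighbouring values cannot be said to differ beyond it.

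RAV proteins carry an AP2 and a B3 DNA-binding domain in a single chain and act mainly as transcriptional repressors. Ethylene signalling stabilises EIN3 and EIL1, and the EDF genes are among the early genes that EIN3 binds and activates. TEM1 and RAV2 are best known as the TEMPRANILLO pair, which delays flowering by repressing FT and also represses gibberellin 3-oxidase genes. RAV1 is known as a negative regulator of growth, and it represses ABI3, ABI4 and ABI5, factors of the abscisic acid response. In darkness, EIN3, EIL1 and the PIFs together favour hook formation and restrain greening.

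By coding sequence the 4 genes form 2 pairs of close relatives. TEM1 and RAV2 were 80.7% identical over 1029 aligned coding bases, and EDF3 and RAV1 were 82.3% identical over 968. Identity between members of different pairs was 74.3% to 76.6%. In the TAIR10.1 annotation TEM1 lies at chr1:8981556-8983314 on the minus strand, RAV2 at chr1:25880155-25882222 on the plus strand, EDF3 at chr3:9396272-9397766 on the plus strand and RAV1 at chr1:4542168-4543970 on the plus strand. Each coding sequence is uninterrupted, with 1086, 1059, 1002 and 1035 bases in the same order. Of the 2 annotated RAV2 transcripts, 1 has an intron, outside the coding sequence. No other annotated gene overlaps any of them. Because close relatives can share reads, the longest identical coding stretch of each pair is shown, in lower case throughout.

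TEM1 and RAV2, 32 bases from coding base 229 of TEM1: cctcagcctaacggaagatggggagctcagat
EDF3 and RAV1, 35 bases from coding base 685 of EDF3: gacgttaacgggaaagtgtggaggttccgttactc

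No pair of the 4 genes shared a longer identical coding stretch, so a full 150 nt read cannot lie within one. The authors' handling of reads with several matches is not stated in the labels.

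The sequences before the annotated starts are shown because EIN3 and the PIFs bind DNA and the 4 genes differed in how their levels varied with these factors. Each run is the 250 bases before the gene start from the RefSeq TAIR10.1 genome, read in the direction of transcription. Capitals mark ATGTA, the core of the motif known for EIN3, or its reverse complement TACAT.

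TEM1, chr1:8983315-8983564, minus strand: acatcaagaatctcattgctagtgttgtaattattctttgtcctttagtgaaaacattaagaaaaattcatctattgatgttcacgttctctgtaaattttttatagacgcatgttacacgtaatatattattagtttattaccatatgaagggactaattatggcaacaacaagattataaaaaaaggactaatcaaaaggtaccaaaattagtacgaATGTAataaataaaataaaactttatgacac
RAV2, chr1:25879905-25880154, plus strand: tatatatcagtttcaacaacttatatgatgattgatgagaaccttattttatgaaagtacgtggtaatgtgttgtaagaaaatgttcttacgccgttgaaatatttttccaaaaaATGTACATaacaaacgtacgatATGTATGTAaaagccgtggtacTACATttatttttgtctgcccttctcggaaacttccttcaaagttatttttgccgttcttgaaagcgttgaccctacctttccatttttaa
EDF3, chr3:9396022-9396271, plus strand: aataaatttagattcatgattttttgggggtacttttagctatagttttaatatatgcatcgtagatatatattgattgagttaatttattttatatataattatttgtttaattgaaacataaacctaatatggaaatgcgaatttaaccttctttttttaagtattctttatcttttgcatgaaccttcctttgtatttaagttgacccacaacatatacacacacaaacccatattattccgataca
RAV1, chr1:4541918-4542167, plus strand: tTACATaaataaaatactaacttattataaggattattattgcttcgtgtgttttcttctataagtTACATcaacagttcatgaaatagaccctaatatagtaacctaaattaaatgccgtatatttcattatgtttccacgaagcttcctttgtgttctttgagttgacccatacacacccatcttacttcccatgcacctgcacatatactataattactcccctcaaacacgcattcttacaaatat

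Matches were counted on both strands over 250 bases before to 50 bases after the start. ATGTA matched 5 times in RAV2, some of the matches overlapping each other, 2 times in RAV1, 1 time in TEM1 and 0 times in EDF3, and it was present in 56.4% of 27443 protein-coding promoters of the same length. The G-box CACGTG and the related CACATG, both known to be bound by PIFs, matched in none of the 4 genes, and in 7.68% and 12.9% of all promoters. Over the 1000 bases before the start, a window chosen after seeing the data, CACGTG was found in RAV1 alone among the 4, at base -364, and in 14.8% of all promoters. CACATG was found there in TEM1 at base -496, EDF3 at base -491 and RAV1 at base -333, not in RAV2, and in 37.7% of all promoters. ATGTA matched in all 4 genes over these 1000 bases, 10 times in RAV2, 5 in EDF3, 4 in RAV1 and 3 in TEM1. It was present in 93.7% of all promoters of that length. CAACA and CACCTG, the motifs known for the AP2 and B3 domains of RAV1, matched in all 4 genes and in RAV1 alone (at base -53), and in 54.2% and 3.31% of all promoters. The longest stretch shared by the EDF3 and RAV1 runs was CTTCCTTTGT, 10 bases that 0.160% of all promoters hold in either direction. The other pairs shared 8 to 12 bases, in runs held by 0.266% to 7.95% of all promoters. The longest, 12 bases of TEM1 and RAV1, was held by 0.328%. These matches describe the letters of these windows and were not read as binding sites.

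The levels of the 4 genes stood between the 28.9 and 92.3 percentiles of the 18581 genes that reached 1 RPKM in at least 1 genotype. TEM1 stood at 49.3 RPKM in hls1, 29.8 in pifq, 17.9 in ein3 eil1, 24.1 in pifq ein3 eil1 and 32.3 in Col-0. It was highest in hls1 and lowest in ein3 eil1, and its level in pifq was close to that in Col-0. RAV2 stood at 41.6 RPKM in hls1, 46.0 in pifq, 15.5 in ein3 eil1, 37.4 in pifq ein3 eil1 and 28.1 in Col-0. It was above Col-0 in hls1, pifq and pifq ein3 eil1, and below it in ein3 eil1. After scaling the columns to a common median, pifq ein3 eil1 came before hls1 in this order, and no other order of a member was altered by scaling.

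EDF3 stood at 22.1 RPKM in hls1, 4.33 in pifq, 12.5 in ein3 eil1, 4.72 in pifq ein3 eil1 and 34.2 in Col-0. Every mutant was below Col-0, and the genotypes with the pifq mutations, at 12.7% and 13.8% of the Col-0 level for pifq and pifq ein3 eil1, were the lowest. RAV1, the most abundant member in every genotype but pifq ein3 eil1, stood at 90.1 RPKM in hls1, 49.2 in pifq, 63.3 in ein3 eil1, 32.5 in pifq ein3 eil1 and 101 in Col-0. Every mutant was again below Col-0, with pifq ein3 eil1 at 32.3% of its level. The remaining AP2/B3 genes most like this group, AT1G50680 and AT1G51120, were listed at 0 in all 5 genotypes.

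**Figure D1:**
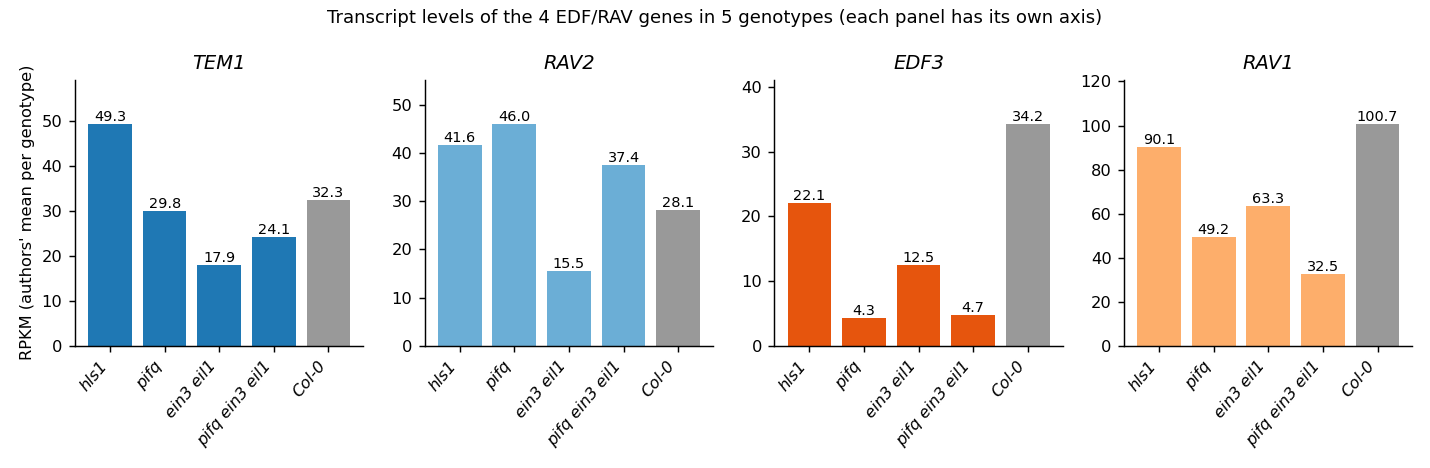
RPKM of each EDF/RAV gene (one panel each, own axis from 0) in hls1, pifq, ein3 eil1, pifq ein3 eil1 and Col-0 (grey). Bars are the authors' means of 2 replicates with no error available. EDF3 and RAV1 are highest in Col-0, whereas RAV2 is highest in pifq and TEM1 in hls1.

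Differences are given below as log2(RPKM + 1) of the mutant minus that of its comparison, and a gene is called higher or lower at 1 or more, a factor of 2 in RPKM + 1. In pifq, 2 of the 4 genes were lower than in Col-0 and none was higher, where 6.22% of all 18581 genes were called lower and 3.39% higher. EDF3 differed by -2.72, lower than 99.4% of all genes. RAV1 differed by -1.02, or by -0.95 after median-of-ratios scaling, which does not reach the threshold. TEM1 differed by -0.11 and RAV2 by 0.69, both above EDF3 and RAV1. The RAV1 difference was nonetheless nearer to that of TEM1 than to that of EDF3. PIF3 stood at 5.61 RPKM in pifq against 35.1 in Col-0 and PIF5 at 1.60 against 4.34, whereas PIF1 was at 18.2 against 19.0 and PIF4 at 8.69 against 4.36. Root transcripts differed as well, although roots had been removed: the 4 root markers CASP1, TIP2;3, PRP3 and EXPA7 summed to 124 RPKM in hls1, 18.8 in pifq, 118 in ein3 eil1, 28.1 in pifq ein3 eil1 and 113 in Col-0. Single markers ranged over 0.0382 to 15.4 RPKM in pifq and 0.222 to 83.8 RPKM in Col-0. In pifq, 2 of the 4 markers were lower and none was higher, and in pifq ein3 eil1 against Col-0, 2 were lower and 1 was higher. CASP1, of the root endodermis, and the aquaporin gene TIP2;3 were those lower in pifq, at 15.4 against 83.8 RPKM and 1.33 against 27.3 RPKM, and no marker was at 0. The part of remaining root tissue in the EDF3 and RAV1 differences was not tested, and fewer cells of a type cannot be told apart from less RNA per cell in whole seedlings.

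In ein3 eil1, all 4 genes stood below Col-0, and 1 of them, EDF3, passed the threshold, where 2.51% of all genes were called lower and 1.63% higher. EDF3 differed by -1.39, RAV2 by -0.82, TEM1 by -0.81 and RAV1 by -0.66. These were lower than 99.2%, 94.8%, 94.6% and 89.2% of all genes in the same order. The median of all genes was -0.29 in this comparison, and after median-of-ratios scaling the 4 differences were -1.07, -0.51, -0.50 and -0.33 in the same order, still all below 0. That scaling turned the split of all calls from 303 higher and 467 lower into 439 higher and 208 lower. EIN3 itself stood at 17.9 RPKM in ein3 eil1 against 84.0 in Col-0, and EIL1 at 10.8 against 44.4. Among the 4 root markers, 1 was higher in ein3 eil1, PRP3 at 7.28 against 1.58 RPKM, and none was lower.

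In hls1, 0 of the 4 genes passed the threshold either way, where 3.40% of all genes were called higher and 4.00% lower. TEM1 differed from Col-0 by 0.59 and RAV2 by 0.55, above 89.9% and 88.3% of all genes. EDF3 differed by -0.61 and RAV1 by -0.16. HLS1 was at 6.28 RPKM in hls1 against 11.2 in Col-0, a difference of -0.74, so the mutated gene does not mark these values clearly. PORA, a protochlorophyllide oxidoreductase gene of the dark-grown state, was lowest in hls1 at 44.5 RPKM, with pifq ein3 eil1 at 213, pifq at 403, ein3 eil1 at 1411 and Col-0 highest at 2089. On the log2 scale used below, its difference from Col-0 was -5.52 for hls1, -3.29 for pifq ein3 eil1, -2.37 for pifq and -0.57 for ein3 eil1. The seedlings, all labelled etiolated, thus differed in this marker, and its part in the differences of the 4 genes was not tested.

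In pifq ein3 eil1, 2 of the 4 genes were lower than in Col-0 and none was higher, where 6.04% and 3.81% of all genes were called lower and higher. EDF3 differed by -2.62 and RAV1 by -1.60, and the RAV1 difference was lower than that of 97.6% of all genes. TEM1 differed by -0.41 and RAV2 by 0.40. The 4 comparisons above share the Col-0 values. The median of all genes was -0.17 in this one, and scaling moved no member across the threshold.

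**Figure D2:**
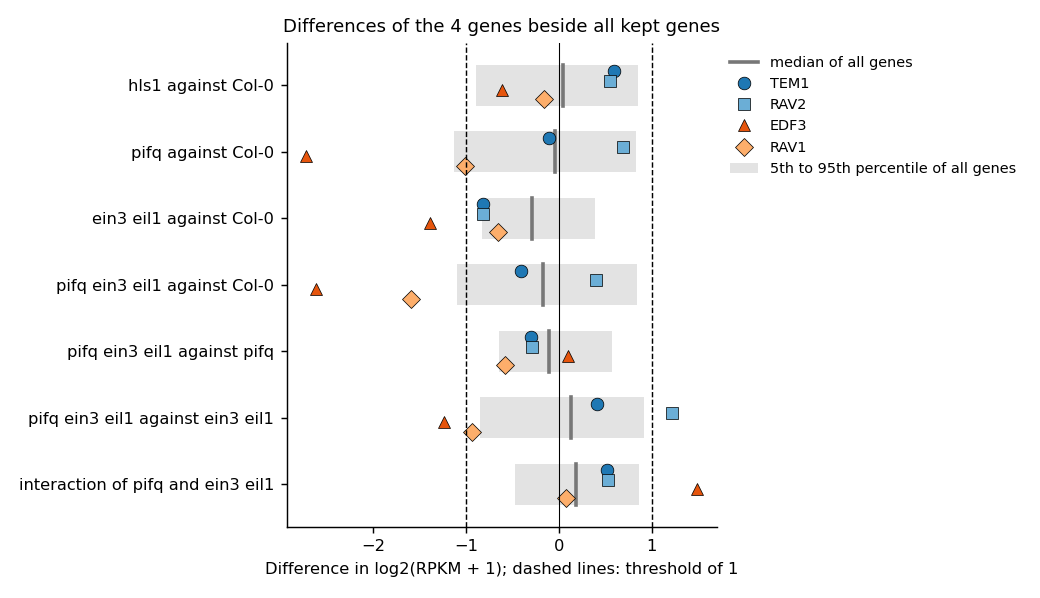
Difference in log2(RPKM + 1) of TEM1, RAV2, EDF3 and RAV1 (symbols) in 6 comparisons and in the interaction, over a grey bar from the 5th to the 95th percentile of 18581 genes with their median as a line. EDF3 lies below the bar in pifq, ein3 eil1 and pifq ein3 eil1 against Col-0 and in pifq ein3 eil1 against ein3 eil1, and RAV1 lies below it in both comparisons of pifq ein3 eil1 with Col-0 and with ein3 eil1. RAV2 lies above the bar in pifq ein3 eil1 against ein3 eil1, as does EDF3 in the interaction.

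The pifq mutations could also be compared in the ein3 eil1 background. In pifq ein3 eil1 against ein3 eil1, RAV2 was higher, at 37.4 against 15.5 RPKM, a difference of 1.22 that was above that of 97.7% of all genes. EDF3 was lower, at 4.72 against 12.5 RPKM, a difference of -1.24. RAV1 differed by -0.94, under the threshold, or by -1.08 and past it after scaling, and TEM1 differed by 0.41. Of all genes, 4.04% were called higher and 3.99% lower. RAV2, EDF3 and RAV1 differed in the same directions as in pifq against Col-0. Of the 4 root markers, 2 were again lower and 0 higher. CASP1 stood at 18.1 against 69.8 RPKM and TIP2;3 at 3.53 against 40.3 RPKM. PORA differed by -2.72. The part of these differences in those of the 4 genes was not tested. The difference between the pairs of comparisons was not tested.

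The ein3 eil1 mutations could likewise be compared in the pifq background, in which whole-gene values do not show every mutated gene low. PIF3 stood at 2.35 RPKM in pifq ein3 eil1 against 35.1 in Col-0, while PIF1 stood at 11.8 against 19.0 and PIF4 at 11.6 against 4.36. In pifq ein3 eil1 against pifq, 0 of the 4 genes passed the threshold, where 1.76% of all genes were called higher and 1.12% lower. TEM1 differed by -0.30, RAV2 by -0.29 and RAV1 by -0.58. EDF3, at 4.72 against 4.33 RPKM, differed by 0.10. After median-of-ratios scaling the differences of TEM1, RAV2, RAV1 and EDF3 were -0.18, -0.17, -0.46 and 0.20. The RAV1 difference was then farther from 0 than that of ein3 eil1 from Col-0, at -0.33, whereas before scaling it was nearer.

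The interaction on the log2 scale, the difference of pifq ein3 eil1 from ein3 eil1 minus that of pifq from Col-0, was 1.49 for EDF3, or 1.27 after scaling, higher than that of 99.1% of all genes. Of all genes, 3.35% had an interaction of 1 or more and 1.50% of -1 or less. If both single differences had added up, EDF3 would have stood at 1.04 RPKM in pifq ein3 eil1, and it was at 4.72. That sum is close to the 1 added to each RPKM value, and EDF3 was already at 4.33 RPKM in pifq. The part of these low levels in the interaction was not tested. RAV1 was at 32.5 RPKM where addition gave 30.8, an interaction of 0.08, or -0.13 after scaling. TEM1 and RAV2 had interactions of 0.52 and 0.53 beside a median of 0.18 over all genes, or 0.32 and 0.34 after scaling. Without scaling they stood at 24.1 RPKM where addition gave 16.5 and at 37.4 RPKM where it gave 25.6.

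**Figure D3:**
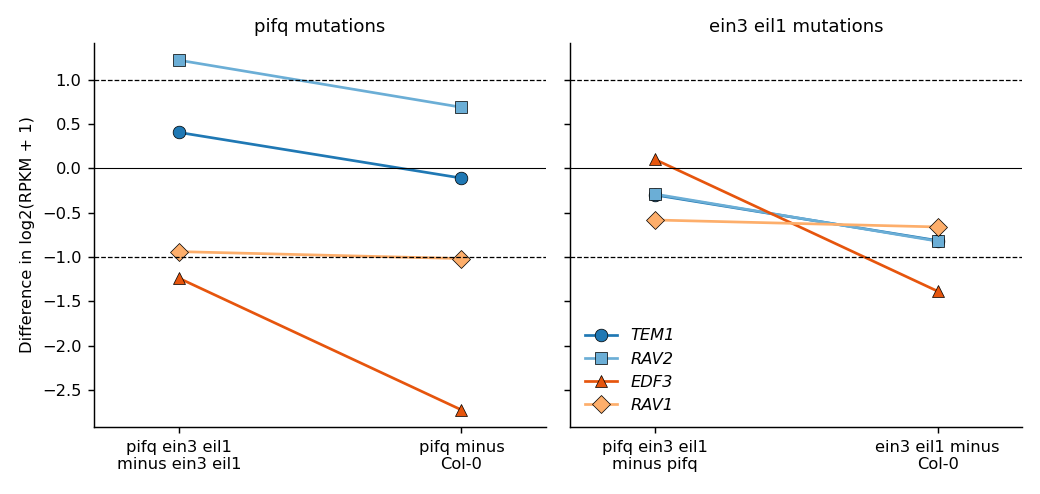
Difference in log2(RPKM + 1) made by the pifq mutations (left panel) and the ein3 eil1 mutations (right panel), each in the background of the other mutations and in Col-0. Lines for RAV1 are nearly flat in both panels, at -0.94 and -1.02 and at -0.58 and -0.66, while those of EDF3 are steep.

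Together the 4 genes summed to 203 RPKM in hls1, 129 in pifq, 109 in ein3 eil1, 98.8 in pifq ein3 eil1 and 195 in Col-0. These sums are of unscaled columns, and scaling alters them. After median-of-ratios scaling TEM1, RAV2, EDF3 and RAV1 stood at 28.8, 44.4, 4.18 and 47.5 in pifq. In ein3 eil1 they stood at 20.8, 18.0, 14.5 and 73.6. The unscaled RAV1 values were 49.2 and 63.3 RPKM. The order of pifq and ein3 eil1 by sum thus depends on the scaling. The make-up of each sum is a ratio within a column, which dividing a column by a factor does not alter. The ratio of TEM1 plus RAV2 to EDF3 plus RAV1 came to 0.810 in hls1, 1.42 in pifq, 0.441 in ein3 eil1, 1.65 in pifq ein3 eil1 and 0.448 in Col-0. Both genotypes with the pifq mutations were above 1, hls1 was between these and Col-0, and ein3 eil1 was near Col-0. Within the pairs, TEM1 over RAV2 came to 1.18 in hls1, 0.649 in pifq, 1.16 in ein3 eil1, 0.643 in pifq ein3 eil1 and 1.15 in Col-0, again with pifq and pifq ein3 eil1 apart from the other genotypes. RAV1 over EDF3 was 4.08, 11.4, 5.07, 6.89 and 2.94 in the same order of genotypes. EDF3 made up 3.35% of the sum in pifq, 4.78% in pifq ein3 eil1 and 17.5% in Col-0.

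**Figure D4:**
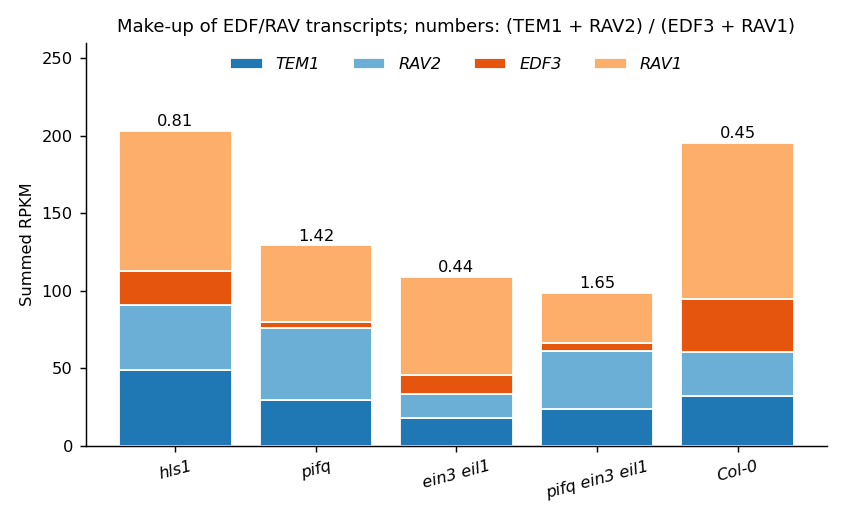
Stacked unscaled RPKM of the 4 EDF/RAV genes per genotype, with the ratio of TEM1 plus RAV2 to EDF3 plus RAV1 above each bar. The ratio is highest in pifq ein3 eil1 at 1.65 and pifq at 1.42, followed by hls1 at 0.810, with Col-0 at 0.448 and ein3 eil1 at 0.441.

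Other genes of the ethylene pathway were read from lists fixed by identifier, also chosen with earlier results of these data known. Of 7 measured genes outside the group that EIN3 is known to induce, all 7 were lower in ein3 eil1 than in Col-0. Of all genes, 2.51% were called lower there. The median difference of the 7 was -1.82 beside -0.29 over all genes, and 5 were lower after scaling. In pifq ein3 eil1 against pifq, 5 of the 7 were lower, or 4 after scaling, with a median of -1.49 beside -0.11. Of all genes, 1.12% were called lower in that comparison. None of the 7 passed the threshold in pifq against Col-0, where 6.22% of all genes were called lower and 3.39% higher. EBF2, which encodes an F-box protein that marks EIN3 for breakdown, stood at 7.44 RPKM in ein3 eil1 against 86.1 in Col-0 and at 8.07 in pifq ein3 eil1 against 65.8 in pifq. ARL, an ARGOS-like gene of organ growth, stood at 21.6 RPKM in ein3 eil1 against 103 in Col-0 and at 22.3 in pifq ein3 eil1 against 76.8 in pifq. The EDF/RAV genes counted 1 of 4 lower in ein3 eil1 against Col-0 and 0 of 4 in pifq ein3 eil1 against pifq. ERF1, a further EIN3 target, was under 1 RPKM in every genotype.

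Of the 11 genes for ethylene receptors and signalling other than EIN3 and EIL1, 6 were lower and 0 higher in ein3 eil1, where 2.51% of all genes were lower. The median difference was -1.12 beside -0.29 over all genes, and 4 were lower after scaling. Of these 6 genes, 5 are also among the 7 EIN3-induced genes above. The receptor gene ETR2 differed by -3.04, at 2.37 RPKM in ein3 eil1 against 26.7 in Col-0. CTR1, the kinase that holds the pathway off in the absence of ethylene, stood at 18.8 against 30.1 RPKM, and EIN2, its downstream membrane protein, at 31.2 against 53.4, both under the threshold. In pifq none of the 11 passed it, and in hls1 none did, with medians of -0.38 and 0.41 beside -0.05 and 0.04 over all genes. Of all genes, 6.22% were called lower and 3.39% higher in pifq, and 4.00% and 3.40% in hls1.

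**Figure D5:**
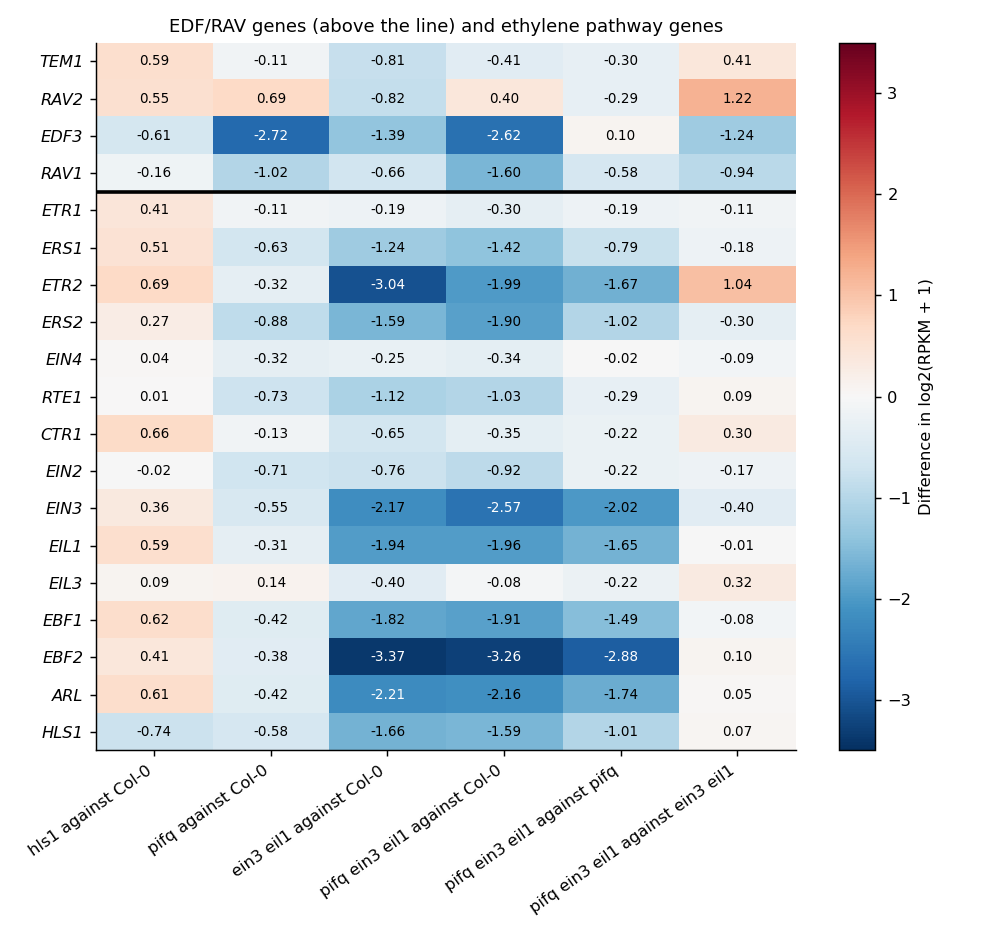
Difference in log2(RPKM + 1) of the 4 EDF/RAV genes (above the line) and of 15 genes of ethylene signalling and response in 6 comparisons, blue for lower and red for higher. EBF2, ETR2 and ARL are far below 0 wherever EIN3 and EIL1 are mutant in the first genotype and not in the second, while the deepest EDF3 values are in the comparisons of pifq and pifq ein3 eil1 with Col-0.

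More distant relatives with a B3 domain, the NGATHA and NGATHA-like genes, which shape leaf margins and the style, had 6 of 7 members at 1 RPKM or more. None passed the threshold in pifq, ein3 eil1 or pifq ein3 eil1 against Col-0. Of all genes, 6.22%, 2.51% and 6.04% were called lower in these comparisons and 3.39%, 1.63% and 3.81% higher. NGA2 was lower in hls1, at 2.29 against 8.78 RPKM. In the comparisons of pifq ein3 eil1, NGAL1 was lower than in pifq, at 9.13 against 19.6 RPKM, and NGA3 was higher than in ein3 eil1, at 6.75 against 2.67 RPKM. Neither of this last pair passed the threshold after scaling.

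The listed genes that TEM1, RAV2 (TEM2) or RAV1 are known to repress were mostly at low levels. FT, the flowering signal repressed by TEM1 and TEM2, was listed at 0 in every genotype, and GA3OX2 was under 1 RPKM in all 5. GA3OX1, which makes active gibberellin, stood at 25.5 RPKM in hls1, 20.7 in pifq, 35.3 in ein3 eil1, 25.1 in pifq ein3 eil1 and 22.5 in Col-0. It was highest in ein3 eil1, where TEM1 and RAV2 were lowest, but its difference from Col-0 of 0.63 was under the threshold. GA3OX1 was also above Col-0 in hls1, where TEM1 was highest, and in pifq ein3 eil1, where RAV2 was above Col-0. A link between GA3OX1 and these genes was not tested. Among the genes repressed by RAV1, ABI4 was higher in pifq, at 14.0 RPKM, and in pifq ein3 eil1, at 4.11 RPKM, against 1.17 RPKM in Col-0. ABI5 was lower in both, at 2.33 and 1.17 RPKM against 6.32, and ABI3 was under 1 RPKM throughout. In ein3 eil1 neither ABI4 nor ABI5 passed the threshold. Of the 5 TOPLESS co-repressor genes, whose products RAV proteins can recruit, none passed the threshold in pifq, ein3 eil1 or pifq ein3 eil1 against Col-0. None passed it in hls1 either, with TPR3 at 0.996. In pifq, ein3 eil1, pifq ein3 eil1 and hls1 in that order, 6.22%, 2.51%, 6.04% and 4.00% of all genes were called lower. The shares called higher were 3.39%, 1.63%, 3.81% and 3.40%.

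Genes with the most similar pattern were found by the Euclidean distance between their 4 differences from Col-0 and those of a member, over 5 genotypes, among 5355 named genes that reached 10 RPKM and were above 0 throughout. CTR1 was nearest to TEM1, at a distance of 0.18, with 48.0 RPKM in hls1, 27.5 in pifq, 18.8 in ein3 eil1, 23.4 in pifq ein3 eil1 and 30.1 in Col-0, close to TEM1 in absolute level too. EDA25, FAAH, HINT4 and CRF5 followed at 0.27 to 0.33. For RAV2 the nearest were GLB3, a haemoglobin gene, at 0.32, then NOP10, XTH28, SKB1 and PSY, which encodes phytoene synthase of carotenoid synthesis, at 0.36 to 0.41.

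For EDF3 the nearest were the transporter gene UMAMIT36 at 0.45, AGL44, a MADS-box gene also called ANR1, at 0.51, WIH3 at 0.68, the auxin-responsive SAUR24 at 0.71 and HY5, a bZIP factor of light signalling, at 0.94. HY5 had 8.33 RPKM in pifq, 8.50 in pifq ein3 eil1 and 37.8 in Col-0. The nearest to RAV1 was ABI1, a phosphatase gene of abscisic acid signalling, at 0.37, and the genes near it also included SAUR9, the peptide hormone gene RALF1 and RHA1B at 0.44 to 0.47. ABI1 had 8.94 RPKM in pifq, 6.65 in pifq ein3 eil1 and 19.9 in Col-0. Nearest to the mean of the 4 members were SBP1 at 0.22, RTE1, a regulator of the ethylene receptor ETR1, at 0.23 and EIN2 at 0.26, then XTH8 and CYSD2 at 0.29 and 0.31. Among the members themselves, TEM1 and RAV2 were the nearest at 1.14. TEM1 and RAV1 followed at 1.68 and then EDF3 and RAV1 at 2.17, so RAV1 was nearer to TEM1 than to EDF3, while EDF3 and RAV2 were farthest apart at 4.74. The median distance of the 5355 genes was 1.03 from TEM1, 1.34 from RAV2, 3.88 from EDF3 and 1.88 from RAV1. RAV2 was thus farther from TEM1 than the median gene was. Within 0.5 of TEM1, RAV2, EDF3 and RAV1 lay 81, 19, 1 and 6 of the 5355 genes.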

How the data were processed

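Per the labels, polyadenylated RNA of 10 samples, 2 of each of 5 genotypes, was made into directional libraries and sequenced as 150 nt read pairs, with low-quality reads removed. BWA 0.7.7 and TAIR10 are named in the submitters' processing notes. Neither the counting tool nor its strand setting or gene lengths are stated there. The authors deposited RPKM values in 1 column per genotype, per the file headers. In each column 51.0% to 51.7% of the values above 0 have 7 or more digits, and the last digit is 5 in 95.3% to 96.0% of these, the pattern left by averaging 2 rounded numbers. Replicate spread and depth are therefore unknown, and no interval or test was possible. The deposited gene descriptions were not used, because the line of EDF3 describes a Myb factor.

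Genes at 1 RPKM or more in at least 1 genotype (18581 of 33559) were compared as log2(RPKM + 1), with a difference of 1 or more as the threshold. A fold on this scale understates differences of low genes. Differences, motif counts and coding alignments were computed with Python 3.11.15, pandas 2.3.3, numpy 2.4.6 and Biopython 1.88, on the RefSeq TAIR10.1 genome and annotation, which held 32817 of the identifiers and lacked 742. The comparison procedure was tested on simulated data with known differences. Protein sequences were not used here, so identity was computed on coding bases. Named genes were the 4 members, the fixed gene lists and the 5 nearest profiles for each member and for their mean, of which 1 is not reported here. The members, lists and tests were chosen with earlier results of these data known. Alternatives were other pseudocounts, filters, scalings and thresholds, and leaving out genes listed at 0.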

Additional observations from a re-analysis of the deposited data

How the results depend on the processing

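No paired analysis was possible because the deposited columns are means of both replicates; for the same reason no replicate could be left out. The 28 member differences (4 genes in 6 comparisons and the interaction) kept their side of the threshold with pseudocounts of 0.1 and 0.5, no filter, a filter of 5 RPKM and without genes listed at 0. Scaling moved 2 of them. RAV1 in pifq against Col-0 was -0.95 after median-of-ratios scaling, -0.96 after quantile normalization and -0.97 after subtracting the median of all genes, under the threshold. RAV1 in pifq ein3 eil1 against ein3 eil1 was -1.08, -1.04 and -1.07 under the same scalings, past it. No called value changed sign. The same scalings kept the order of genotypes for 3 of the 4 genes, RAV2 being the exception. At a threshold of 2, 6 calls were lost, RAV1 at -1.02 in pifq and -1.60 in pifq ein3 eil1, EDF3 at -1.39 in ein3 eil1, RAV2 at 1.22 and EDF3 at -1.24 in pifq ein3 eil1 against ein3 eil1, and the EDF3 interaction at 1.49.

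Over all genes, the number called in hls1, pifq and ein3 eil1 against Col-0, in pifq ein3 eil1 set against pifq or ein3 eil1, and in the interaction was 1376, 1785, 770, 536, 1491 and 901. With a pseudocount of 0.1 it was 2200, 2688, 1504, 1142, 2420 and 1724. At a threshold of 2 it was 195, 355, 135, 75, 287 and 156, and in pifq ein3 eil1 against Col-0 it was 367 in place of 1830. Median-of-ratios scaling gave 908 higher and 852 lower in pifq ein3 eil1 against Col-0 (708 and 1122 unscaled), 398 and 156 against pifq (327 and 209), 575 and 918 against ein3 eil1 (750 and 741), and 410 and 360 for the interaction (622 and 279). Over 1000 bases before the start, the 4 genes held 1 CACGTG, 3 CACATG, 22 ATGTA and 16 CAACA matches, against 0, 0, 8 and 7 in the shorter window. In the longer window 14.8%, 37.7%, 93.7% and 93.7% of all promoters held these motifs. The longer window was chosen after seeing the data. The unknown depth and replicate spread limit every value, most of all differences near the threshold.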
